A study of Sus scrofa with 27 samples.

Results

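The growth arrest, MYC and GADD45 genes described here are MYC, CCND1, CDKN1A, CDKN1B, CDKN1C, CDKN2B, GADD45A, GADD45B, GADD45G and MDM2. They are 10 of the 31908 genes in the table of read counts, chosen by gene name, and a gene was to be dropped only if it had fewer than 10 counts in every library. All 10 were kept, with 16 to 64437 counts per library. The study perfused pig lungs outside the body on an ex vivo lung perfusion (EVLP) circuit, which ventilates a donor lung and passes a warm fluid through its vessels, and asked how dialysis of the fluid, in place of exchanging part of it, alters the lung. Large-White pigs gave the lungs without a beating heart, and all lungs then lay in the cold before EVLP with Steen solution that held the steroid methylprednisolone, the antibiotic cefuroxime and heparin. In the gold standard (GS) group, 5 pigs numbered 9, 17, 44, 55 and 77, part of the solution was exchanged at intervals. In the pediatric dialysis (PD) group, 4 pigs numbered 2, 3, 4 and 5, continuous veno-venous hemodialysis ran on the circuit instead. Each lung was biopsied at 0h, before EVLP, and at 6h and 12h, which gave 27 lung RNA-seq libraries. The 0h biopsy is thus the control of its own pig, the steroid was shared by both groups, no lung was studied without EVLP, and pig ages are not given in the sources used here.

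These genes stand at the point where a cell decides whether to divide. MYC is a transcription factor that, bound to MAX, drives genes of ribosome building and metabolism. CCND1 encodes cyclin D1, which activates CDK4 and CDK6 to carry cells through G1. CDKN1A (p21), CDKN1B (p27) and CDKN1C (p57) encode inhibitors of cyclin-CDK complexes, and CDKN2B (p15) encodes an inhibitor of CDK4 and CDK6. The GADD45 genes encode small stress-induced proteins that bind p21, PCNA and the kinase MAP3K4, upstream of p38 and JNK. MDM2 encodes a ubiquitin ligase, and CDKN1A, GADD45A and MDM2 are classical genes of the DNA damage response. In lung, several of these genes respond to hypoxia, reperfusion, inflammatory signals and steroids.

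Counts on genes totalled 26335584 to 67522703 per GS library and 14650700 to 21820935 per PD library. Depth did not overlap between the groups, so library depth and the perfusion group cannot be told apart. Levels are given as normalised read counts in CPM, the counts of a gene scaled to a common library size, on TMM-scaled library sizes over all 27 libraries. The library of PD pig 2 at 12h stood apart. Of all 27 libraries it had the lowest mitochondrial share of counts (1.65%), the fewest genes detected (18979) and the lowest TMM factor (0.633). The median correlation of a library with the others of its group and time was 0.849 for it, against 0.90 for the next lowest PD library, and a value against 0h is also given without it where it changed the call or sign or moved the value by over 1.5 times. Lung markers were present at every time: the 4 alveolar type 2 markers summed to at least 4864 CPM in each library. These are bulk biopsies, in which fewer cells of a type and less RNA per cell cannot be told apart.

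Of the 10 genes, 5 rose in GS at 6h and at 12h: MYC, CDKN1A, GADD45A, GADD45B and GADD45G. A gene was called with a fold change (FC) of at least 2 and an adjusted p under 0.05 in edgeR's quasi-likelihood test with the pig as a block. By that rule 11.1% of 18594 genes tested were called in either direction at 6h and 15.7% at 12h. In PD, 1 of the 10 genes rose at 6h, GADD45A, where 0.142% of 15545 genes were called. At 12h, 4 of the 10 rose in PD, all of the GS genes but GADD45G, where 5.98% of genes were called. GADD45G was called there too in DESeq2, without the pig as a block and in a fit of all 27 libraries. No gene of the 10 was called lower in any of the 4 comparisons. The PD counts moved with single pigs. With PD pig 2 at 12h left out, MYC, CDKN1A and GADD45B were called at 6h as well, 4 genes in all, and the 12h count was again 4, in fits that called 1.59% and 26.2% of all genes. Without pig 3, 4 or 5, 0 of the 10 were called at 6h, and without pig 3 or 5, 0 were called at 12h, in fits that called 0 of all genes. The 6h and 12h comparisons of a group share their 0h libraries. The median log2 FC of the 10 genes was 0.97 and 1.07 in GS at 6h and 12h and 0.69 and 1.41 in PD, against medians between -0.08 and -0.02 over all genes tested. The 10 genes were chosen with earlier results of these data known, so the difference from all genes is no test of the set.

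**Figure D1:**
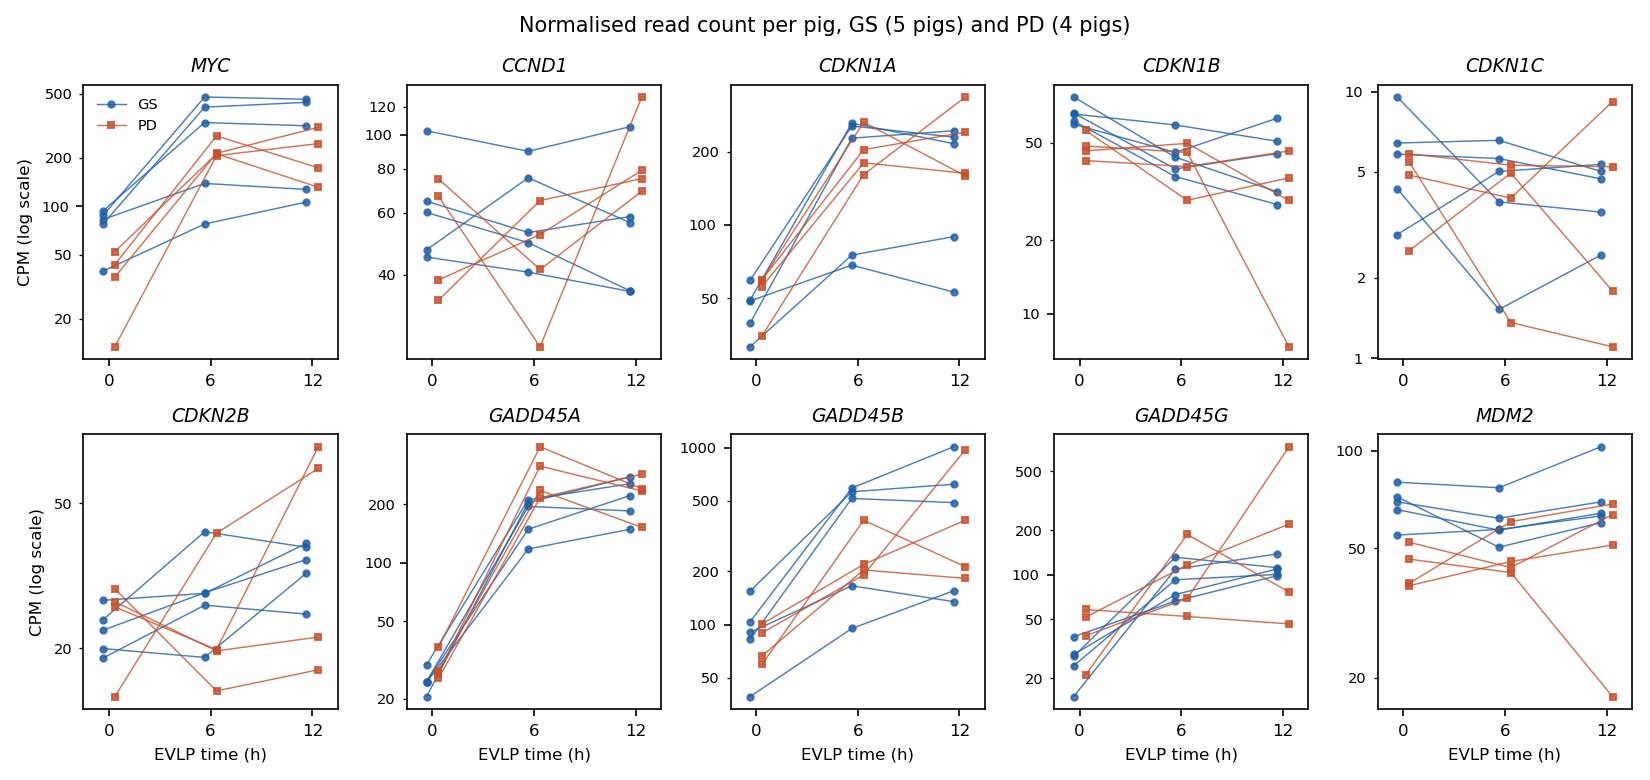
Normalised read counts in CPM (log axis, separate scale for each gene) at 0h, 6h and 12h of EVLP, with a line per pig. MYC, CDKN1A and GADD45A climb from 0h to 6h in all 9 pigs, while CCND1, CDKN1C and MDM2 have no common direction. PD pig 2 at 12h is the lowest point of CDKN1B and MDM2 and the highest of GADD45G.

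GADD45A changed most of the 10. Its level at 0h was 24.3, 24.5, 30.0, 24.5 and 20.5 CPM in GS pigs 9, 17, 44, 55 and 77. At 6h it was 117.6, 148.6, 210.5, 194.5 and 203.6 CPM, and at 12h it was 148.4, 220.9, 254.3, 184.4 and 276 CPM. Every EVLP biopsy therefore lay far above every 0h biopsy, with no overlap. For this and the later genes, the share of all genes without overlap between 0h and EVLP was not computed. The FC was 6.84 at 6h (log2 FC 2.77 ± 0.16 SE, adjusted p = 3.05e-06, n = 5 pigs) and 8.37 at 12h (3.07 ± 0.16, adjusted p = 9.92e-07). Among the 18594 genes tested, GADD45A had the smallest p at both times in GS.

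In PD the GADD45A level at 0h was 36.8, 27.9, 27.1 and 25.45 CPM in pigs 2, 3, 4 and 5. It was 393.3, 234.9, 312.9 and 215.4 CPM at 6h and 239.9, 152, 233.5 and 284.7 CPM at 12h. These biopsies were also separate from 0h without overlap, and the rise was seen in 4 of 4 pigs at both times. The FC was 9.72 at 6h (log2 FC 3.28 ± 0.33 SE, adjusted p = 0.0102, n = 4 pigs) and 7.71 at 12h (2.95 ± 0.33, adjusted p = 0.00681). GADD45A again had the smallest p of all genes at 6h, among 15545, and the rank was 4 at 12h. These PD calls, though not the rise itself, depended on which pigs were in the fit. Without pig 3, 4 or 5 the 6h call was lost (adjusted p = 0.148, 0.0841 and 0.272), and without pig 3 or 5, or with only the 2 times compared, the 12h call was lost (0.104, 0.246 and 0.106), while the log2 FC stayed between 2.74 and 3.34.

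GADD45B, the family member best known as a target of NF-kappaB and TGF-beta signaling, rose from a higher and more variable base. In GS pigs 9, 17, 44, 55 and 77 the level was 90.4, 39.2, 154.6, 82.6 and 103.8 CPM at 0h. It was 165.7, 95.1, 562.9, 516.2 and 590.5 CPM at 6h and 134.9, 155.2, 621, 488.9 and 1010 CPM at 12h. Pig 17 at 6h and pig 9 at 12h lay within the 0h range, the other values of these pigs lay just above it, and pigs 44, 55 and 77 rose well clear of it. The FC was 3.38 at 6h and 4.07 at 12h, or 1.76 ± 0.29 SE and 2.03 ± 0.30 on the log2 scale (adjusted p = 0.0014 and 0.000395).

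In PD pigs 2, 3, 4 and 5 the GADD45B level was 89.9, 59.6, 66.6 and 100.9 CPM at 0h, 191, 388.7, 203.6 and 219 CPM at 6h, and 974, 212.4, 182.5 and 389.1 CPM at 12h. All EVLP values lay above all 0h values. The FC was 3.29 at 6h and was not called (log2 FC 1.72 ± 0.50 SE, adjusted p = 0.264), and was 4.79 at 12h (2.26 ± 0.51, adjusted p = 0.031). Pig 2 held the highest value at 12h, and with that library left out the log2 FC at 12h was 1.63 and at 6h 1.66, both called. DESeq2 (adjusted p = 0.0236) and a fit of all 27 libraries (0.0336) also called it at 6h. Without pig 3, 4 or 5 the 12h call was lost (adjusted p = 0.181, 0.0569 and 0.277) at log2 FC of 2.38, 2.55 and 2.37, and it was lost with only the 2 times compared (2.15, adjusted p = 0.111).

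GADD45G, a member of the family linked to cytokine and growth signals, rose in every GS pig. Its level in pigs 9, 17, 44, 55 and 77 was 38.2, 29.0, 24.3, 28.15 and 15.1 CPM at 0h, 66.3, 73.4, 92.35, 131.1 and 108.8 CPM at 6h, and 98.3, 109.3, 100.4, 111.5 and 137.9 CPM at 12h. The times before and during EVLP did not overlap. The FC was 3.45 at 6h and 4.07 at 12h, or 1.79 ± 0.24 SE and 2.02 ± 0.24 on the log2 scale (adjusted p = 0.000495 and 0.000125).

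The PD pigs went apart for GADD45G. The level in pigs 2, 3, 4 and 5 was 38.7, 21.1, 58.2 and 51.6 CPM at 0h, 69.1, 186.8, 52.3 and 116.2 CPM at 6h, and 727.8, 76.4, 46.55 and 219.2 CPM at 12h. Pig 4 was below its own 0h value at both times, and the other pigs were above theirs. The log2 FC was 1.28 ± 0.79 SE at 6h and 2.09 ± 0.84 at 12h, with adjusted p of 0.625 and 0.154, and neither was called. At 12h it was called in DESeq2 (2.14, adjusted p = 0.0204), without the pig as a block (2.66, adjusted p = 0.0374) and in a fit of all 27 libraries (2.10, adjusted p = 0.0227). Pig 2 at 12h set much of the 12h value: without that library the log2 FC was 1.01. With each PD pig left out in turn, the log2 FC ran from 0.48 to 1.985 at 6h and from 1.07 to 3.00 at 12h, with no call.

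The GADD45 genes lie on different chromosomes of Sscrofa11.1: GADD45A (ENSSSCG00000037066) at chr6:144940702-144944249 and GADD45B (ENSSSCG00000022689) at chr2:76107929-76111479, both on the minus strand, and GADD45G (ENSSSCG00000035249) at chr14:1165982-1167538 on the plus strand. The 250 bases upstream of each gene's start, as the deposited table places it, were read from the RefSeq copy of the same build and are shown because the 3 paralogs all rose in GS. They are given 5′ to 3′ on the gene's strand, with every match of the motifs searched in capitals.
GADD45A, chr6:144944250-144944499, minus strand: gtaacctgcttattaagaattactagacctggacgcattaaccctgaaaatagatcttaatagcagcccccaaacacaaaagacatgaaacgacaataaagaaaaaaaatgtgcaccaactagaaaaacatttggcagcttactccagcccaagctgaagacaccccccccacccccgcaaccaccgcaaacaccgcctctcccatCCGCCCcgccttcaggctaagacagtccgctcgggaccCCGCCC
GADD45B, chr2:76111480-76111729, minus strand: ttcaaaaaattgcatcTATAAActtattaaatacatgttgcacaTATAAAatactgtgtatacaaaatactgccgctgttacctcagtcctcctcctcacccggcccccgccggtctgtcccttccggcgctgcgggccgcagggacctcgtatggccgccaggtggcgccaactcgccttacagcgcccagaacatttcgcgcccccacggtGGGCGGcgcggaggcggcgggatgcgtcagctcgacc
GADD45G, chr14:1165732-1165981, plus strand: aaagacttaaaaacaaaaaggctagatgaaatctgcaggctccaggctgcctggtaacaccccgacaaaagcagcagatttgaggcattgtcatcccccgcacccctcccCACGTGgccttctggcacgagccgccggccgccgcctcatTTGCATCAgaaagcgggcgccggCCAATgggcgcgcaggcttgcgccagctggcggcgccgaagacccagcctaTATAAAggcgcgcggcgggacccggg

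Motifs were searched on both strands. The motif of the core promoter was TATAAA, the motif bound by NF-Y was CCAAT, and the GC box bound by SP1 was GGGCGG. The E-box bound by MYC and related factors was CACGTG. The motif of AP-1 was TGANTCA, that of CREB was TGACGTCA, and the composite motif of C/EBP and ATF4 was TGATGNAA. The GADD45G window held TATAAA 26 to 21 bases before the start, CCAAT 77 to 73, TGATGNAA on the opposite strand 100 to 93 and CACGTG 140 to 135 bases before it. GADD45A held the GC box alone, at 6 to 1 and at 44 to 39 bases before the start, and GADD45B held a GC box at 37 to 32 and TATAAA at 206 to 201 and 234 to 229 bases before the start. No motif was found in all 3 windows. Among the same windows of 20273 protein-coding genes, 10.3% held TATAAA, 31.2% CCAAT, 45.1% the GC box, 6.34% CACGTG and 2.75% TGATGNAA. TGANTCA was in 5.24% of windows and TGACGTCA in 1.77%, and neither was in the GADD45 windows. A match is a description of letters and no measurement of binding.

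CDKN1A (ENSSSCG00000001565, chr7:32359455-32363761, plus strand), the gene for p21, rose from a common base of 31.6 to 59.2 CPM in GS and 35.0 to 59.5 CPM in PD. In GS pigs 9, 17, 44, 55 and 77 it was 68.3, 75.1, 254.6, 226.9 and 261.4 CPM at 6h and 52.98, 89.4, 229.3, 243.3 and 215.6 CPM at 12h. All pigs were above their own 0h value, but pig 9 at 12h, at 52.98 CPM against 48.7 CPM at 0h, overlapped the 0h range. The FC was 3.21 at 6h and 3.01 at 12h, or 1.68 ± 0.29 SE and 1.59 ± 0.29 on the log2 scale (adjusted p = 0.00166 and 0.00131).

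In PD pigs 2, 3, 4 and 5 the CDKN1A level was 59.5, 55.8, 59.3 and 35.0 CPM at 0h, 203.6, 179.7, 263.8 and 160.8 CPM at 6h, and 240.1, 162.8, 158.8 and 334.9 CPM at 12h. EVLP and 0h values did not overlap. The FC was 3.83 at 6h, not called at an adjusted p of 0.0815 (log2 FC 1.94 ± 0.38 SE), and 4.26 at 12h (2.09 ± 0.38, adjusted p = 0.0185). At 6h it was called in DESeq2 (adjusted p = 7.75e-05), without a filter on low counts (0.0253), without the pig as a block (0.0203), with only the 2 times compared (0.0108), in a fit of all 27 libraries (0.00551) and with PD pig 2 at 12h left out (log2 FC 1.93, adjusted p = 0.0127). The 12h call was lost without pig 3 or pig 5 (adjusted p = 0.173 and 0.259) and with only the 2 times compared (0.111), at log2 FC of 2.27, 1.67 and 2.04.

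MYC (ENSSSCG00000005965, chr4:12455119-12461078, minus strand) rose in all 9 pigs, from different bases. In GS pigs 9, 17, 44, 55 and 77 the level was 82.6, 39.5, 93.5, 87.6 and 77.4 CPM at 0h, 138.4, 77.5, 330.2, 475.8 and 411.5 CPM at 6h, and 127, 106.1, 315.4, 460.5 and 440.9 CPM at 12h. Only pig 17 at 6h fell within the range of 0h values. The FC was 3.07 at 6h and 3.16 at 12h, or 1.62 ± 0.25 SE and 1.66 ± 0.25 on the log2 scale (adjusted p = 0.000911 and 0.000442).

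In PD pigs 2, 3, 4 and 5 the MYC level was 52.2, 43.5, 13.4 and 36.3 CPM at 0h, 211.3, 272.9, 205.8 and 212.9 CPM at 6h, and 131.1, 173.1, 244.5 and 308.3 CPM at 12h. All EVLP values exceeded all 0h values. At 6h the FC was 6.47 and missed the threshold (log2 FC 2.70 ± 0.45 SE, adjusted p = 0.0507), with a call in DESeq2 (adjusted p = 6.04e-07), with its size factors (0.0474), without a filter on low counts (0.00348), without the pig as a block (0.0108), with only the 2 times compared (0.0039), in a fit of all 27 libraries (0.00122), without pig 2 (0.024) and with PD pig 2 at 12h left out (log2 FC 2.73, adjusted p = 0.00328). At 12h it was 6.15 (2.62 ± 0.45, adjusted p = 0.0176). Without pig 3 or pig 5 the 12h call was lost (adjusted p = 0.171 and 0.254), as with only the 2 times compared (0.11), at log2 FC of 2.82, 2.43 and 2.63. The largest ratio, in pig 4, was 15.3-fold at 6h and 18.1-fold at 12h, and that pig had the lowest level at 0h.

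**Figure D2:**
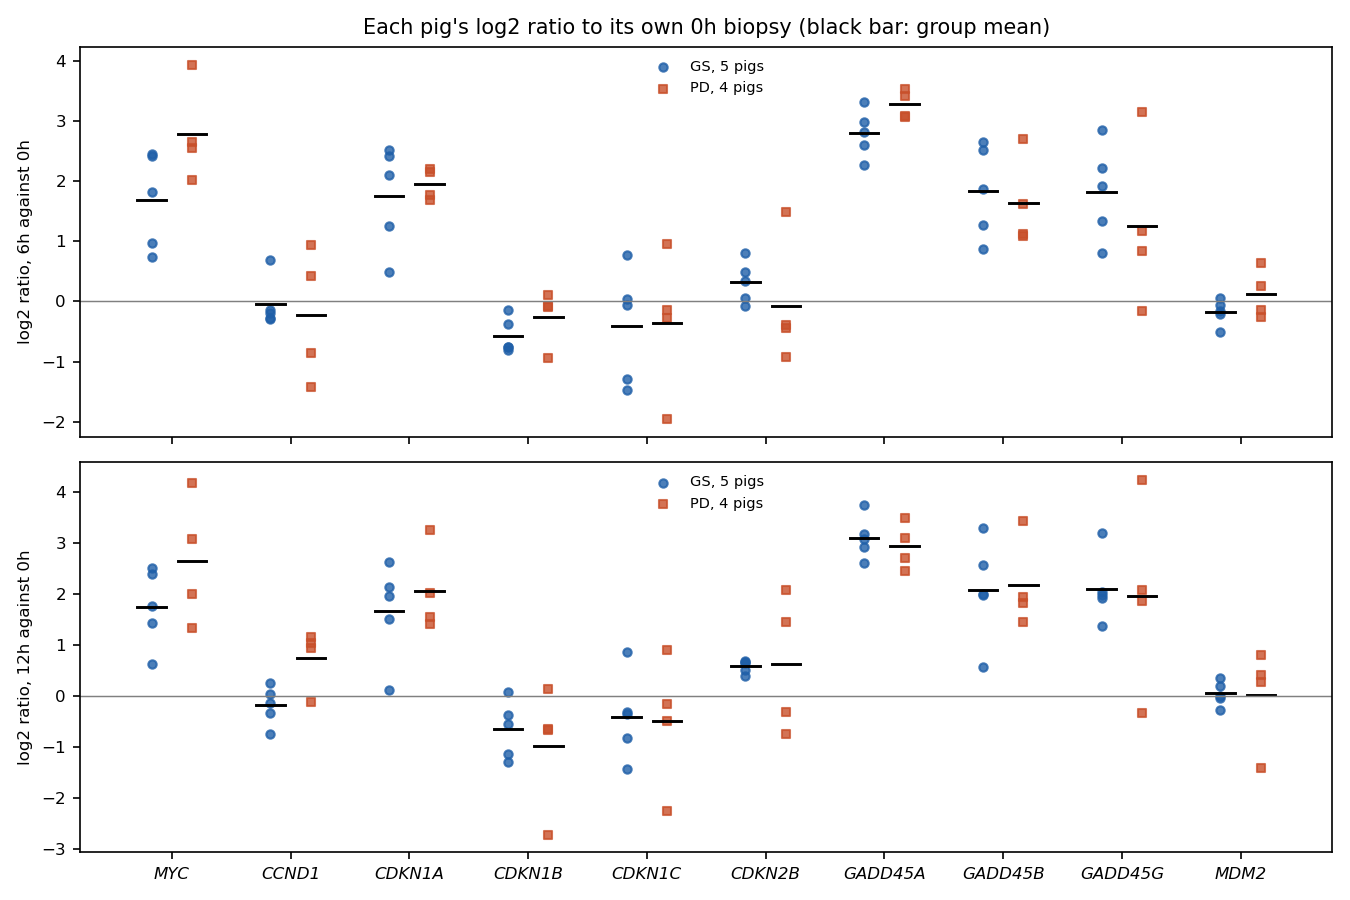
Log2 ratio of each pig's 6h (top) and 12h (bottom) biopsy to its own 0h biopsy, from log2 CPM with a prior count of 2, with a black bar at the mean of 5 GS or 4 PD pigs. MYC, CDKN1A, GADD45A and GADD45B lie above 0 in all pigs at both times, GADD45G in all but PD pig 4, and the ranges of both groups overlap for all 10 genes, as for all but 3.04% of genes at 6h and 2.15% at 12h.

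The same pigs rose least in GS. Pig 9 had the smallest log2 ratio of the 5 GS pigs for all 5 genes called, MYC, CDKN1A, GADD45A, GADD45B and GADD45G, at 6h and again at 12h. Pig 17 had the next smallest for all 5 genes at 6h and for 4 of 5 at 12h. For CDKN1A, as an example, the log2 ratios at 6h were 0.49 and 1.25 in pigs 9 and 17 against 2.11, 2.52 and 2.41 in pigs 44, 55 and 77. No PD pig was lowest for more than 3 of the 5 genes at either time. The 5 genes come from the same libraries and are not independent of each other. The 6 libraries of pigs 9 and 17 had totals of 26335584 to 41802541 counts, below the 51708598 to 67522703 counts of the other GS libraries. Mitochondrial genes took 2.41% to 3.14% of the counts of pig 17, against 5.74% to 9.49% in the other GS pigs. The 6h and 12h libraries of pigs 9 and 17 also had the lowest GS median correlations with their group and time. These were 0.929 to 0.947, against 0.954 to 0.974 for all other GS libraries, so the 2 pigs stood apart over all genes. The part of depth, mitochondrial share and this correlation in the order was not tested.

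The other inhibitors of cyclin-CDK complexes moved less. CDKN1B (ENSSSCG00000037144, chr5:59731206-59735831, minus strand), the gene for p27, was 59.5 to 76.9 CPM at 0h in GS, 36.4 to 59.1 CPM at 6h and 28.0 to 63.0 CPM at 12h. Its values at 6h lay below all 0h values, and at 12h they overlapped through pig 9. The log2 FC was -0.60 ± 0.18 SE at 6h (adjusted p = 0.0244) and -0.68 ± 0.18 at 12h (adjusted p = 0.0103), short of a 2-fold decrease. The adjusted p rose to as much as 0.259 and 0.17 in other fits and to 0.0903 and 0.0678 without a pig. In PD the log2 FC was -0.22 ± 0.46 and -0.82 ± 0.47 (adjusted p = 0.867 and 0.313). PD pig 2 at 12h had 7.34 CPM against 29.1 to 46.3 CPM in the other PD pigs, and without that library the log2 FC at 12h was -0.38.

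CDKN2B (ENSSSCG00000034120, chr1:200761004-200766056, plus strand), the gene for p15, was 23.95, 27.1, 18.8, 19.96 and 22.4 CPM at 0h and 37.9, 38.8, 24.8, 32.15 and 35.0 CPM at 12h in GS pigs 9, 17, 44, 55 and 77. It was higher at 12h in 5 of 5 pigs, by a log2 FC of 0.55 ± 0.14 SE (adjusted p = 0.00917, and up to 0.213 in other fits), again short of 2-fold. In PD the direction differed between pigs. The level at 12h was 71.4 and 62.3 CPM in pigs 3 and 4, above 0h, and 21.5 and 17.5 CPM in pigs 2 and 5, below it, with a log2 FC of 0.58 ± 0.49 (adjusted p = 0.511).

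CDKN1C (ENSSSCG00000040461, chr2:2019490-2021853, minus strand), the gene for p57, had few reads, with 1.10 to 9.55 CPM and as few as 16 counts in a library. Its log2 FC lay between -0.50 and -0.38 in the 4 comparisons against 0h, with SE of 0.30 to 0.61, and none passed. PD pig 2 at 12h held the highest PD value, 9.17 CPM, and without that library the PD log2 FC at 12h was -1.06. CCND1 (ENSSSCG00000037900, chr2:3621246-3633296, minus strand) was 44.9 to 102.6 CPM at 0h, 40.7 to 89.7 CPM at 6h and 35.9 to 105.4 CPM at 12h in GS. In PD it was 33.9 to 74.9 CPM at 0h, 25.0 to 65.0 CPM at 6h and 69.1 to 128 CPM at 12h, and 3 of 4 pigs were higher at 12h than at 0h. Its log2 FC was -0.07 ± 0.16 SE and -0.22 ± 0.16 in GS and -0.17 ± 0.43 and 0.73 ± 0.42 in PD, with no call. PD pig 2 at 12h held the 128 CPM, and without that library the PD log2 FC at 12h was 0.40.

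MDM2 (ENSSSCG00000000488, chr5:33086994-33178089, plus strand), unlike the other DNA damage response genes CDKN1A and GADD45A, was not called in any comparison against 0h. In GS it was 54.9 to 79.9 CPM at 0h, 50.4 to 76.8 CPM at 6h and 59.9 to 102.7 CPM at 12h. The log2 FC was -0.20 ± 0.11 SE and 0.01 ± 0.11 in GS and 0.10 ± 0.38 and 0.08 ± 0.38 in PD. With PD pig 2 at 12h left out, a library with 17.5 CPM against 51.2 to 68.5 CPM in the other PD pigs, the PD log2 FC at 12h was 0.43.

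**Figure D3:**
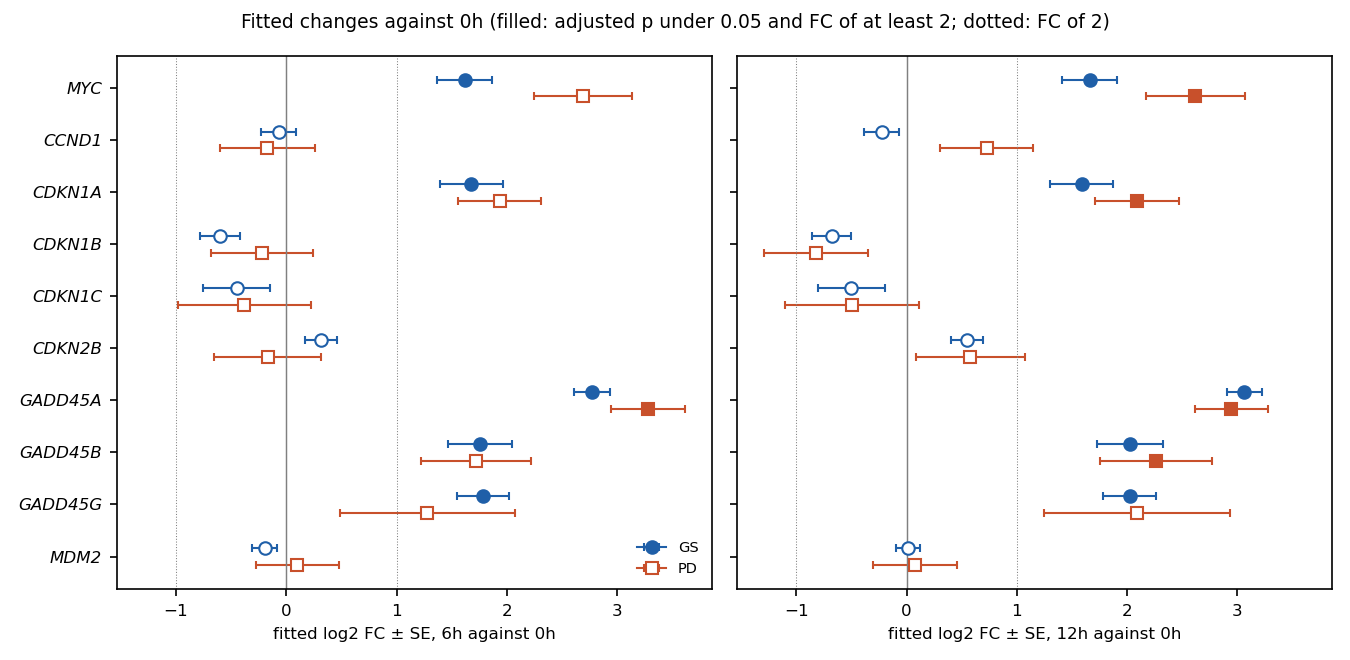
Fitted log2 FC with its SE for GS (circles) and PD (squares) at 6h and 12h against 0h. Filled symbols passed an adjusted p under 0.05 and an FC of at least 2: 5 genes in GS at both times, 1 in PD at 6h and 4 in PD at 12h. PD error bars are the wider ones, for example 0.79 against 0.24 for GADD45G at 6h.

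From 6h to 12h none of the 10 genes was called in either group by edgeR at an adjusted p under 0.05, with 0% of all genes called in GS and 0% in PD. No member had an unadjusted p under 0.05 in this comparison, and DESeq2 called none of them either. DESeq2 called 6 genes in all in GS and 207 in PD, and 4.74% and 10% of all genes had an unadjusted p under 0.05 in edgeR. An edgeR fit of all 27 libraries called 0 genes in all in GS and 492 (2.75%) in PD, and no member.

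The changes were then compared between groups as the PD change minus the GS change. No member was called at 6h or 12h, where 0% of 17884 genes passed at each time, and DESeq2 called none of the 10 genes. With PD pig 2 left out, edgeR called 254 genes in all at 6h (1.37%) and 153 at 12h (0.824%), and no member. DESeq2 on all pigs called 7 genes in all at 6h and 17 at 12h. An unadjusted p under 0.05 in edgeR was found for 5.85% and 5.98% of all genes. Among the 10, MYC was the 1 gene of the 10 at 6h and CCND1 at 12h. The MYC change was larger in PD, by 1.05 ± 0.49 SE on the log2 scale at 6h and 0.93 ± 0.50 at 12h (edgeR adjusted p = 0.783 and 0.866). With each pig left out in turn this difference ran from 0.74 to 1.33 at 6h and from 0.48 to 1.38 at 12h. Mean log2 CPM of MYC at 0h, 6h and 12h was 5.02, 7.81 and 7.67 in PD and 6.19, 7.87 and 7.93 in GS. For CCND1 the difference at 12h was 0.91 ± 0.42 (adjusted p = 0.826), and 0.62 without PD pig 2 at 12h. For GADD45A the difference was 0.49 ± 0.31 at 6h and -0.15 ± 0.31 at 12h, and for CDKN1A it was 0.25 ± 0.46 and 0.48 ± 0.47. GADD45B differed by -0.04 ± 0.56 and 0.21 ± 0.57, and the 12h value turned to -0.40 without PD pig 2 at 12h. The GADD45G difference of -0.51 ± 0.78 at 6h and 0.04 ± 0.80 at 12h was the least precise of the 5, and the 12h value was -1.02 without PD pig 2 at 12h.

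Before EVLP, 2 of the 10 genes differed between the groups, both lower in PD, where 40.6% of 16477 genes passed an adjusted p under 0.05. MYC was lower in PD by a log2 FC of -1.03 ± 0.36 SE (edgeR adjusted p = 0.0367), with 13.4 to 52.2 CPM in PD and 39.5 to 93.5 CPM in GS. GS pig 17 alone lay within the PD range. MDM2 was lower by -0.60 ± 0.18 (adjusted p = 0.0214), with 38.4 to 52.2 CPM in PD and 54.9 to 79.9 CPM in GS and no overlap. CDKN1B also did not overlap between the groups, at 42.3 to 56.2 CPM in PD and 59.5 to 76.9 CPM in GS, with a log2 FC of -0.40 ± 0.17 and an adjusted p of 0.0706, and it was called in DESeq2 (-0.43, adjusted p = 0.0358). Of all genes tested, 34.2% did not overlap between the groups at 0h. GADD45G was the gene with the largest value in the other direction, 0.70 ± 0.32 (adjusted p = 0.0978). It was called without PD pig 3 (0.918, edgeR adjusted p = 0.0251). Without PD pig 5 neither MYC nor MDM2 was called. Without GS pig 9, 44, 55 or 77 MDM2 was called and MYC was not. The adjusted p for MYC was between 0.0512 and 0.0829 over these 5 fits.

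Summed levels of cell type markers also differed between the groups at 0h, and a sum follows its most abundant gene. Alveolar type 2 markers, 4 genes, summed to 6367 to 9000 CPM in GS and 25930 to 76650 CPM in PD, although 1 of the 4 was called higher and 1 lower in PD. The 4 endothelial markers summed to 1685 to 2456 CPM in GS and 783.6 to 1388 CPM in PD, with 3 called lower. Neutrophil markers, of which 3 of 4 were matched, summed to 120.9 to 368.9 CPM in GS and 599.8 to 1224 CPM in PD, with 2 called higher and 1 lower. The 2 erythrocyte markers summed to 0.355 to 10.3 CPM and 51.35 to 235.9 CPM, with 1 called higher. Over EVLP, the erythrocyte sum had a mean of 5.64 CPM at 0h, 1.78 CPM at 6h and 2.24 CPM at 12h in GS. In PD it had 137.8, 42.8 and 96.98 CPM, with 7.78 to 358.6 CPM over the 12h libraries. The neutrophil sum had means of 226.5, 207.1 and 286.3 CPM in GS and 798.5, 490.2 and 650.6 CPM in PD. The 4 T and B cell markers went from a mean of 196.5 CPM at 0h to 122.7 CPM at 6h and 113.9 CPM at 12h in GS, and from 131.6 to 88.6 and 73.5 CPM in PD. No marker was at 0 throughout a group. The part of these cell types in the levels and changes of the 10 genes was not tested.

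**Figure D4:**
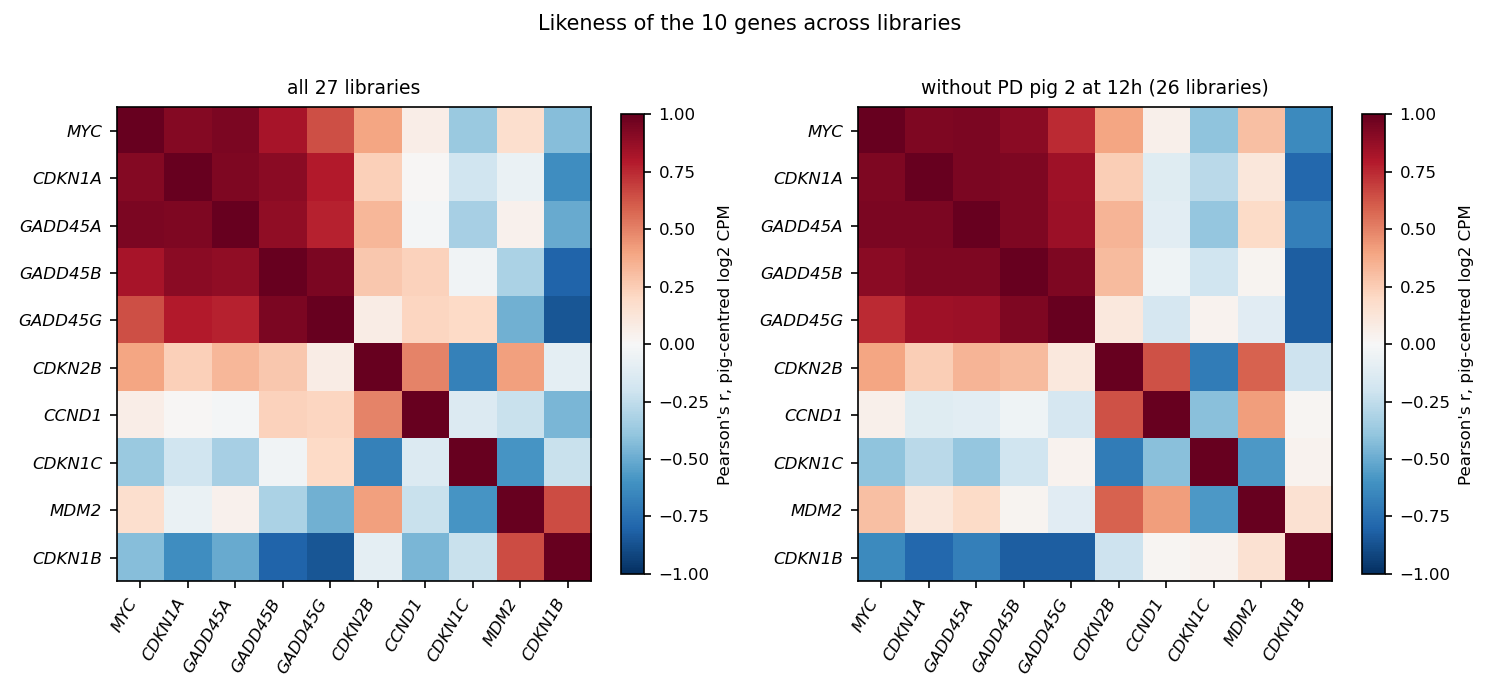
Pearson's r of log2 CPM between the 10 genes, after the mean of each pig was taken off, over all 27 libraries (left) and over 26 without PD pig 2 at 12h (right). The 5 genes called in GS form a block with r of 0.645 to 0.942 on the left and 0.745 to 0.94 on the right, and CDKN1B is negative against all 5.

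The 5 genes called in GS varied together. Each was picked for its rise from 0h, so r over the same libraries in part restates that rise. Over the 27 libraries, with the mean of each pig taken off, r was 0.942 between GADD45B and GADD45G, 0.939 between MYC and GADD45A and 0.937 between CDKN1A and GADD45A. The lowest of their pairs was MYC with GADD45G, at 0.645, and at 0.975 in GS and 0.437 in PD taken alone. CDKN1B ran against them, with r of -0.855 with GADD45G, -0.802 with GADD45B, -0.62 with CDKN1A, -0.504 with GADD45A and -0.427 with MYC. Without PD pig 2 at 12h these were -0.821, -0.825, -0.785, -0.687 and -0.64, and with MYC it was -0.878 in GS and -0.236 in PD. MDM2 had r between -0.478 and 0.165 with the 5 genes, and between -0.114 and 0.303 without PD pig 2 at 12h, where the signs for GADD45B and CDKN1A changed. Its r of 0.656 with CDKN1B was 0.151 without PD pig 2 at 12h. These values describe 3 libraries per pig that share depth and time, and carry no test.

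The genes with a symbol whose pattern was most like each member were looked up among 13098 by the same r. For MYC they were SGK1, a kinase gene induced by steroids and cell stress (r = 0.978), and HIC2 (0.961). For CDKN1A they were TP53INP2, which takes part in autophagy (0.971), and NFKBIA, the inhibitor of NF-kappaB (0.965). GADD45A was most like ZFAND5 (0.965) and ETS2, an ETS family transcription factor (0.958). GADD45B was most like NNMT (0.961), which methylates nicotinamide, and CISH (0.954), a feedback inhibitor of cytokine signaling, and GADD45G was most like OSGIN1 (0.949) and ZNF703 (0.948). Without PD pig 2 at 12h these values were 0.925 to 0.978. For CDKN1B they were N4BP2L1 (0.962) and STX17 (0.958), for CDKN1C ANO8 (0.952) and POLD1 (0.902), for CDKN2B TUBB (0.849) and MICAL2 (0.844), for CCND1 TRMT2A (0.928) and CCDC71 (0.864), and for MDM2 GNPTAB (0.936) and RSBN1 (0.923). Without PD pig 2 at 12h these were 0.897 and 0.911 for CDKN1B, 0.949 and 0.891 for CDKN1C, 0.875 and 0.846 for CDKN2B, 0.894 and 0.782 for CCND1, and 0.848 and 0.85 for MDM2. The genes named hold the 2 highest of 13098 values for each member, picked in the same libraries. In GS, 1023 genes were called higher than at 0h at 6h and 1300 at 12h. Shared regulation was not tested.

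Related genes were followed in lists, whose counts stand against the 11.1% and 15.7% of all genes called in GS at 6h and 12h and the 0.142% and 5.98% in PD. The lists were also chosen with earlier results of these data known, and the counts are no test of a list. Of 15 MYC target genes of growth, 4 rose in GS at 6h and 4 at 12h, none was called in PD at 6h and 7 rose in PD at 12h. The median log2 FC of the list was 0.49, 0.70, 0.67 and 1.30 in that order, against -0.05, -0.08, -0.02 and -0.05 over all genes. SRM, which makes spermidine, had a log2 FC of 1.58 ± 0.25 SE at 6h and 1.75 ± 0.25 at 12h in GS and 2.73 ± 0.49 at 12h in PD (edgeR adjusted p = 0.000954, 0.000317 and 0.0179). GNL3, which encodes nucleostemin of the nucleolus, had 1.56 ± 0.18, 1.67 ± 0.18 and 2.53 ± 0.48 (adjusted p = 0.000249, 8.14e-05 and 0.0199). At 0h, however, 7 of these 15 genes were higher and 2 lower in PD than in GS, where 21.3% of all genes were called higher and 19.3% lower. In the network of MYC, MAX and MXD genes, 0 of 12 were called in any comparison against 0h, and MAX, the partner of MYC, had a log2 FC of 0.06 ± 0.13 and 0.22 ± 0.13 in GS at 6h and 12h and -0.08 ± 0.32 and 0.77 ± 0.32 in PD (adjusted p = 0.777, 0.188, 0.934 and 0.168).

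Of 24 DNA damage and stress response genes, 19 were matched by symbol and tested. In GS 2 rose and 1 fell at 6h and 3 rose at 12h, and in PD none was called at 6h and 3 rose at 12h. The called genes were 15.8% of the list in GS at 6h, in GS at 12h and in PD at 12h. Of all genes, 11.1%, 15.7% and 5.98% were called in that order. SESN2, a stress gene that restrains mTORC1, had a log2 FC of 1.86 ± 0.27 SE and 1.95 ± 0.28 in GS and 2.23 ± 0.40 at 12h in PD (edgeR adjusted p = 0.000703, 0.000314 and 0.0179). PMAIP1, the gene for the pro-apoptotic protein NOXA, had 1.149 ± 0.32 and 1.32 ± 0.33 in GS and 2.19 ± 0.51 at 12h in PD (adjusted p = 0.0194, 0.00785 and 0.0342). PLK2, a polo-like kinase gene, fell by 1.24 on the log2 scale in GS at 6h (adjusted p = 0.0196). The PD values at 12h of SESN2, PMAIP1, SRM and GNL3 lost their call without pig 3 or pig 5 and with only the 2 times compared (adjusted p = 0.11, 0.155, 0.106 and 0.106), and that of PMAIP1 also without pig 4 (adjusted p = 0.118). PMAIP1 in GS lost its call at 6h without pig 44, 55 or 77 (adjusted p = 0.0691, 0.0879 and 0.0725) and at 12h without pig 44 (0.0536). At 6h it was also lost without the pig as a block (0.0799) and in a fit of all 27 libraries (0.0762). PLK2 lost its call without pig 9, where it fell short of 2-fold, without pig 17 (0.0943), without a filter on low counts (0.0599) and without the pig as a block (0.0538).

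Of the 10 S phase and mitosis genes tested, 0 were called in any of the 4 comparisons against 0h, with a median log2 FC of -0.34 and -0.28 in GS at 6h and 12h and -0.41 and -0.41 in PD. With 10 genes and the shares of all genes called given above, a count of 0 is near the background. Of the 14 other G1 cyclins, CDKs, CDK inhibitors and RB family genes tested, 1 was called, CDKN2D (p19) in GS at 12h, with a log2 FC of 1.02 ± 0.23 SE (edgeR adjusted p = 0.00385). Without GS pig 44, 55 or 77 it fell short of 2-fold, and without the pig as a block it missed the threshold (1.14, adjusted p = 0.0533).

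Among 9 GADD45 partners in stress kinase signaling, MAP2K3 and MAP2K6, both kinases of p38, moved in opposite directions in GS, and none of the 9 was called in PD. MAP2K3 had a log2 FC of 1.397 ± 0.25 SE at 6h and 1.48 ± 0.25 at 12h (edgeR adjusted p = 0.00202 and 0.000901), and MAP2K6 had -1.29 ± 0.23 and -1.43 ± 0.23 (adjusted p = 0.00209 and 0.00072). In PD at 12h MAP2K3 had 1.47 ± 0.45 and MAP2K6 -1.53 ± 0.44 (adjusted p = 0.0746 and 0.0642), and the PD minus GS change was not called for either gene. Of 12 TGF-beta, SMAD and FOXO regulators, SMAD2 was the gene called, lower in GS at both times (-1.01 ± 0.20 and -1.02 ± 0.20) and in PD at 12h (-1.45 ± 0.35), with edgeR adjusted p of 0.00305, 0.00195 and 0.0365. Its GS values sit at the 2-fold limit and fell short of it under most alternatives. Of 8 glucocorticoid-induced genes, 2 and 4 rose in GS at 6h and 12h and 2 rose in PD at 12h. KLF9, a steroid-induced transcription factor gene, had 1.81 ± 0.17 and 2.01 ± 0.17 in GS and 1.86 ± 0.46 at 12h in PD (adjusted p = 0.000105, 3.71e-05 and 0.0409). SGK1 had 1.602 ± 0.31, 1.93 ± 0.31 and 2.28 ± 0.52 (adjusted p = 0.00287, 0.000669 and 0.0319). The PD calls of SMAD2, KLF9 and SGK1 were lost without pig 3, 4 or 5 and with only the 2 times compared (adjusted p = 0.122, 0.123 and 0.138), and that of SMAD2 also without a filter on low counts (0.054).

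**Figure D5:**
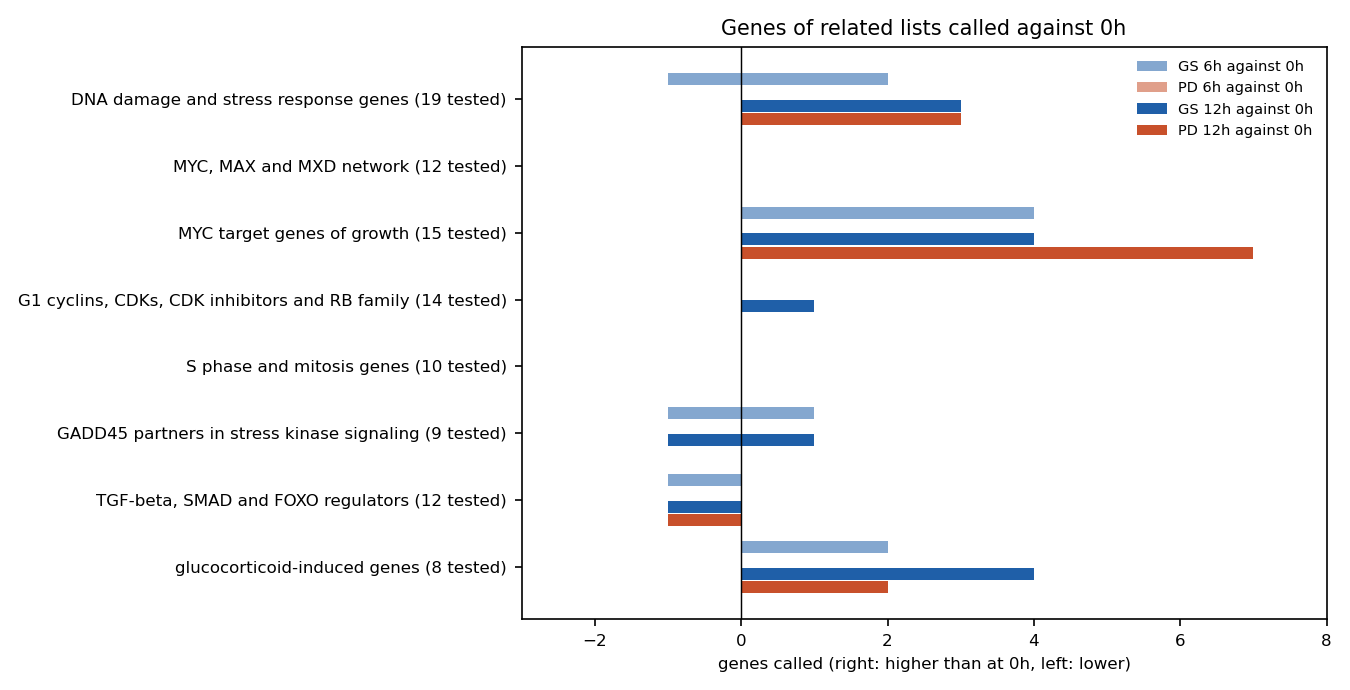
Number of genes called higher (right) or lower (left) than at 0h in each list, for GS and PD at 6h and 12h. MYC target genes of growth have 7 of 15 called in PD at 12h, glucocorticoid-induced genes 4 of 8 in GS at 12h, and the MYC, MAX and MXD network and the S phase and mitosis genes have 0.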

How the data were processed

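The values were the deposited read counts per gene of 31908 Ensembl genes (release 101, Sscrofa11.1) in 27 libraries. Per the submitters' processing notes and methods, the authors used bcl2fastq 2.2.18.12, cutadapt 1.15, TopHat2 2.0.14 and featureCounts from Subread 1.6.0. The strand setting and the treatment of reads with several places are not given in the sources used here, and neither is which of 2 RNA extraction kits served which biopsy. Members and gene lists were chosen with earlier results of these data known. Counts were tested in R 4.3.3 with edgeR 4.0.16 (filterByExpr, TMM, robust quasi-likelihood F tests, two-sided, Benjamini-Hochberg over all genes tested), per group with 3 times and the pig as a replicate block, since all 3 biopsies come from the same animal. The mean correlation of same-pig residuals was 0.526 in GS and 0.109 in PD. PD minus GS changes were tested as the interaction in all 27 libraries, and 0h between groups without a block. A call against 0h needed an adjusted p under 0.05 and an FC of at least 2. SE is the log2 FC over the root of F, and log2 CPM used a prior count of 2. DESeq2 1.42.0, other scalings, filters, designs and left-out pigs were alternatives. Genes named were all members, the 2 called genes of each list with the largest change in each direction against 0h, and MAX. The result of 1 list gene is not reported here. The tests were checked on simulated data. Genes not matched by symbol (MKI67, CCNA2, BAX, BTG2, CDKN2A and others) were not analysed here. Counts were not split by exon or isoform.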

Additional observations from a re-analysis of the deposited data

Results flagged for a closer look

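In 100 groups of 4 or 5 pigs (60 sets of levels and 40 of log2 ratios against 0h), 7 held a pig far from the others by Dixon's test, where chance gives about 1 in 20. For levels, these were MYC in GS pig 17 at 0h (39.5 CPM, others 77.4 to 93.5) and in PD pig 3 at 6h (272.9 CPM, others 205.8 to 212.9). They were also CDKN1A in PD pig 5 at 0h (35.0 CPM, others 55.8 to 59.5), CDKN2B in PD pig 4 at 0h (14.7 CPM, others 25.97 to 29.1) and MDM2 in GS pig 9 at 12h (102.7 CPM, others 59.9 to 69.5). For log2 ratios, these were CCND1 in GS pig 9 at 6h (0.68, others -0.29 to -0.14) and CCND1 in PD pig 5 at 12h (-0.12, others 0.94 to 1.147). Low 0h levels enter the ratios to 0h of the same pig: CDKN1A at 12h was highest relative to 0h in PD pig 5, and CDKN2B in PD pig 4. MYC in GS pig 17 went the other way, with log2 ratios of 0.97 at 6h and 1.42 at 12h, the next smallest after pig 9. No gene of the 10 moved one way in all GS pigs and the other way in all PD pigs.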

How the results depend on the processing

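The GS counts of 5 called genes at 6h and 12h stayed at 5 in DESeq2, under other scaling, without a filter on low counts, without the replicate block, with only the times compared, in a fit of all 27 libraries and without any single pig. Those fits called 6.04% to 11.4% of all genes at 6h and 10.2% to 18.8% at 12h. With no fold threshold the counts were 6 and 7, where 28.5% and 38.4% of all genes were called. The PD count of 1 at 6h was 4 in DESeq2, 2 with DESeq2 size factors, 3 without a filter on low counts, 3 without the replicate block, 3 with only the 2 times compared, 4 with PD pig 2 at 12h left out and 4 in the fit of all 27 libraries. In that order these fits called 1.54%, 0.154%, 0.39%, 0.643%, 0.919%, 1.59% and 2.68% of all genes, against 0.142% in the main fit. The 6h count was 0 to 2 when each PD pig was left out in turn, in fits that called 0% to 0.624% of all genes. The PD count of 4 at 12h, where 5.98% of all genes were called, was 0 with only the 2 times compared, where 4 genes of all were called. It was 0 to 4 with each pig left out, in fits that called 0% to 24.4% of all genes. It was 5, with GADD45G added, in DESeq2, without the replicate block and in the fit of all 27 libraries, which called 9.4%, 9.39% and 18.5% of all genes. The count of 2 at 0h was 3 in DESeq2, with CDKN1B added, where 29.2% of all genes were called. Shares in DESeq2 and without a filter are over every gene with a count, a larger set than in the filtered fits. They cannot be set directly against the shares of the filtered fits. At 0h DESeq2 called 7883 genes and edgeR 6687. With each pig left out it was 0 to 3, with GADD45G added without PD pig 3, in fits that called 34.2% to 43.6% of all genes. The counts of 0 for 12h against 6h and for PD minus GS changes were 0 in all alternatives run. Many of these fits called 0 of all genes, where no member could be called. The largest share was 2.75% of all genes, for PD 12h against 6h in the fit of all 27 libraries. The exact Wilcoxon test compared 5 with 4 pigs. That is too few to pass adjustment over all genes unless a large share of genes reached its smallest p. Leaving out PD pig 2 at 12h was chosen after seeing the data. The causes of these shifts were not tested. A fit without a pig has fewer samples, and its share of all genes called went up or down. At PD 12h against 0h the share was 24.4% without pig 2 and 0% without pig 3 or 5.

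Of 765 alternative values, for all 10 genes against 0h and between groups at 0h but for PD minus GS changes only of the genes with a value in the report, 687 kept direction and side of the threshold, 22 lost and 25 gained a call, and 31 changed sign, none of which was called. For PD minus GS changes, GADD45G at 12h (0.04) was -0.017 without a filter, -0.14 in the per-pig Wilcoxon comparison and -1.02 without PD pig 2 at 12h, and GADD45B at 12h (0.21) was -0.40 without that library. CDKN1A at 6h (0.25 ± 0.46 SE) was -0.012 without the replicate block, and -0.12 with the block kept but without GS pig 9. With each pig left out in turn, values that changed sign ranged as follows. Against 0h in GS, CCND1 at 6h ran from -0.21 to 0.0032 and MDM2 at 12h from -0.021 to 0.099. In PD at 6h, CCND1 ran from -0.55 to 0.13, CDKN1C from -0.94 to 0.28, CDKN2B from -0.60 to 0.16 and MDM2 from -0.031 to 0.19. In PD at 12h, CDKN1C ran from -1.09 to 0.21 and MDM2 from -0.13 to 0.47. For PD minus GS changes at 6h, CDKN1A ran from -0.12 to 0.43, GADD45B from -0.46 to 0.17 and GADD45G from -1.29 to 0.16. At 12h, GADD45A ran from -0.32 to 0.061, GADD45B from -0.30 to 0.51 and GADD45G from -0.94 to 0.93. At 0h, CCND1 ran from -0.41 to 0.0016 and GADD45B from -0.42 to 0.023. PD depth was below that of every GS library, and CDKN1C had as few as 16 counts.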
